A study of Homo sapiens with 54 samples.

Results

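The genes described here were zinc finger genes named ZNF followed by a number that were well expressed in 4 cancer cell lines. A gene was included when its mean level over the 3 control libraries was at least 5 TPM (a gene's share of a library's transcripts, scaled by transcript length and to a fixed total) in each line, which 160 of the 478 ZNF genes listed reached and the other 318 did not. The same minimum was reached by 8755 genes of any name out of 55906 listed, and these are used as the background below. Control levels chose the members and are given as a description only, and the same control libraries form one side of each comparison.

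The study asked how cells depend on TRA2A and TRA2B, paralogous splicing factors, in 54 poly(A)-selected RNA-seq libraries with 3 replicates per group. In A549 and NCI-H23, lung cancer lines that stably expressed Zim3-dCas9, a CRISPR interference repressor built on the KRAB domain of the zinc finger protein ZIM3, guides targeted control loci (Control KD), TRA2A (TRA2A KD), TRA2B (TRA2B KD) or both (TRA2A/B DKD), and cells were collected 5 days after transduction. In LN229 and LN319, glioma lines, CRISPR-Cas9 guides against control loci (Control KO), TRA2A (TRA2A KO) or TRA2B (TRA2B KO) were given to cells that stably expressed luciferase (Luc), and control or TRA2A guides to cells that overexpressed TRA2B (TRA2B-OE), with collection 7 days after transduction. All knockdown groups therefore carried the KRAB-dCas9 repressor and all knockout groups carried Cas9, controls included, and the knockout cells were transduced populations, not clones.

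C2H2 zinc finger proteins form the largest family of human transcription factors. Each finger is a short fold held by a zinc ion, and arrays of fingers read DNA, while some members bind RNA or other proteins. Many carry a KRAB box, which recruits TRIM28 and, through it, the histone methyltransferase SETDB1 and heterochromatin proteins to silence chromatin, often at transposable elements. A smaller group carries a SCAN box, a dimerization domain. The fingers of KRAB genes usually lie in one long final exon, and many of these genes stand in clusters on chromosome 19. TRA2 proteins bind GAA-rich exonic sequence, with AGAA as a core, and promote exon inclusion.

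Of the 160 members, 57 lay on chromosome 19, with 14 each on chromosomes 7 and 16. A KRAB box was found in 72 and a SCAN box in 10. The number of C2H2 finger matches had a median of 9 and ran from 0 in ZNF330, a nucleolar protein, to 36 in ZNF142, and 12 members had fewer than 2. Coding sequences of the members held a median of 12.6 AGAA per kb, from 0 in ZNF580 to 25.1 in ZNF146, against 7.73 over 18340 coding entries of the annotation. AGAA was present in 99.4% of members and in 97.4% of all coding entries, so that its density and not its presence varied. Members with a KRAB box had a median of 15.3 AGAA per kb and a transcript GC content of 44.5%, and those without one 9.60 per kb and 52.0%.

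The difference in composition is visible in the coding sequence of a single finger and its linker. For 3 KRAB genes that rose and 3 genes that fell in both double knockdowns, chosen to span the range of densities, and for ZNF580, which rose there with no AGAA in its coding sequence, the 84 bases with the most AGAA that begin at a finger are printed (GRCh38, Gencode v44 transcripts, coding strand 5′ to 3′, AGAA in capitals). The windows lie in coding exons of ZNF461 (chr19:36639682-36639765, minus strand), ZNF766 (chr19:52290860-52290943, plus), ZNF10 (chr12:133156717-133156800, plus), ZNF580 (chr19:55642788-55642871, plus), ZNF367 (chr9:96394842-96394925, minus), ZNF668 (chr16:31064121-31064204, minus) and ZNF326 (chr1:90017330-90017413, plus).
ZNF461: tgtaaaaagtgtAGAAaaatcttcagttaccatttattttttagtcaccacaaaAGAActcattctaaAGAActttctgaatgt
ZNF766: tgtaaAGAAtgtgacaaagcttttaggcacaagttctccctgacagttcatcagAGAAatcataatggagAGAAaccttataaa
ZNF10: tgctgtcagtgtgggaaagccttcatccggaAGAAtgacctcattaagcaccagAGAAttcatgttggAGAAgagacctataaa
ZNF580: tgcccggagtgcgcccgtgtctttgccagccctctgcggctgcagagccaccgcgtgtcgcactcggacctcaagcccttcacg
ZNF367: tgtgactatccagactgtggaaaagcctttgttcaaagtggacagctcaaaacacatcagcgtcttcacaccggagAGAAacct
ZNF668: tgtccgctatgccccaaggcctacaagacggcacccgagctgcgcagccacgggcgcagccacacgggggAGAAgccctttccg
ZNF326: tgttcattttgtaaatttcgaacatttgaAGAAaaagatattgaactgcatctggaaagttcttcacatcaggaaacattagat
The windows of ZNF461, ZNF766 and ZNF10 each held 3 AGAA, those of ZNF367, ZNF668 and ZNF326 held 1 and that of ZNF580 held 0. Over the whole coding sequence, the 6 genes that fell in both double knockdowns did not share a low density. ZNF326 had 15.5 AGAA per kb, ZNF511 13.2 and ZNF318 12.6, at or above the members' median, and ZNF384 had 7.68, ZNF367 7.62 and ZNF668 3.77. A match is a run of letters on the coding strand and not a measured binding site.

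Control levels of the members had medians of 14.3 (A549), 11.9 (NCI-H23), 16.8 (LN229) and 19.1 TPM (LN319). Averaged over the lines, the highest were ZNF207 at 155 TPM, a spindle assembly factor, ZNF706 at 116, ZNF593 at 78.2, a ribosome biogenesis factor, ZNF384 at 76.7 and ZNF146 at 71.4. The lowest were ZNF586 at 7.72, ZNF101 at 7.53, ZNF175 at 7.46, ZNF155 at 6.26 and ZNF710 at 6.08. At the edge of the rule, ZNF180 (5.01 TPM in NCI-H23), ZNF350 (5.10 in A549) and ZNF155 (5.13 in LN229) were just inside, and ZNF174 (4.96 in NCI-H23), ZNF618 (4.94 in NCI-H23) and ZNF319 (4.93 in LN319) just outside. All 160 members passed the filter on low TPM in every line.

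Targeting was first checked on the RNA of the targeted genes. In the knockdowns, log2 fold changes of the targeted TRA2A and TRA2B ranged from -3.90 to -2.13 in the lung lines. In LN319, TRA2A fell by 1.55 on the log2 scale after TRA2A KO and TRA2B by 1.62 after TRA2B KO, whereas in LN229 the falls were 0.65 and 0.64, and in LN229 TRA2B-OE cells TRA2A did not pass the test after TRA2A KO (log2 fold change -0.22, limma adjusted p = 0.0793). Overexpression raised TRA2B by 1.86 in LN229 and 3.03 in LN319. These are RNA levels and do not measure how much protein was lost in the knockouts, which the study checked by immunoblot. In NCI-H23 and LN319 the paper also reports strongly lower TRA2A protein after TRA2B overexpression alone. Of 6 epithelial markers, KRT8 and KRT18 were high in both lung lines (772 to 2804 TPM), and KRT18 stood at 119 TPM in LN229 and 97.0 in LN319. KRT7 was at 3594 TPM in A549 and 3.95 in NCI-H23, and CDH1 at 21.7 and 1.94. EPCAM stood at 2.76 and 1.28 TPM, and KRT19 at 5.85 and 0.0766. Of 4 lung markers, NKX2-1, SFTPB and SFTPC were below 1 TPM in both lung lines. NAPSA stood at 1.72 TPM in A549 and 0.554 in NCI-H23. Of 6 glial markers, LN229 had S100B (455 TPM), FABP7 (102), SOX2 (81.9) and OLIG2 (9.78), and LN319 had SOX2 (402), while GFAP was at 2.84 and 2.13 TPM, beside 2.49 TPM in A549. LN319 also listed the epithelial markers CDH1 at 123 TPM and KRT8 at 120 TPM, and NKX2-1 at 7.98 TPM. A pair of control libraries stood apart. A549 Control KD replicate 3 correlated less with the other controls (mean r = 0.842 across genes) than replicates 1 and 2 did (0.884 and 0.886), and the members took 0.4004% of its TPM against 0.286% and 0.304%, near the 0.425% to 0.441% of the DKD libraries. LN229 Luc Control KO replicate 1 had a median absolute difference of 0.270 (log2) from the other controls of its group, against 0.187 and 0.181 for these. Counts in A549 DKD and in LN229 TRA2B KO are given with and without these libraries. TPM is a share of a library, so that a higher TPM and a loss of other RNA cannot be told apart.

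In A549, 56 of 160 members were higher and 7 lower in TRA2A/B DKD than in Control KD (limma on log2 TPM, Benjamini-Hochberg adjusted p under 0.05 over all genes tested). Among all genes tested 30.5% passed, with 14.6% higher and 15.9% lower, and among the genes at the control minimum 13.8% were higher and 21.6% lower. The members thus passed upwards in 35.0% and downwards in 4.38% of cases. Their median log2 fold change was 0.38, against 0.04 over all genes and -0.05 over genes at the minimum, and lay between 0.32 and 0.38 in each DKD library set against the control mean. The 203 ZNF genes tested that were not members had a median of 0.68, above that of the members, with 79 higher and 5 lower. The rise was thus not particular to the well-expressed ZNF genes. A rise above 2-fold was seen in 17 members, where 7.69% of all genes met the same rule, and in 21 without A549 Control KD replicate 3. Without the control library that stood apart, 72 members were higher and 10 lower, 37.8% of all genes passed, and 61 of the 63 calls were kept. Nothing in the labels says whether replicates were separate cultures, so that p-values measure the spread between these libraries only.

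ZNF350, a repressor that partners with BRCA1, had the largest rise in A549 with all controls. It measured 15.2, 28.7 and 13.9 TPM in the DKD libraries and 3.68, 8.26 and 3.37 TPM in the controls, a log2 fold change of 1.87 ± 0.38 (SE, n = 3 per group, limma adjusted p = 0.00382). Every DKD library lay above every control, with replicate 2 high in both groups. Without A549 Control KD replicate 3 its log2 fold change was 1.56 and that of ZNF10 was 1.95. ZNF274, a KRAB and SCAN protein known to bring SETDB1 to the 3′ ends of zinc finger genes, measured 43.5, 48.5 and 46.7 TPM against 12.3, 14.5 and 23.3, a log2 fold change of 1.45 ± 0.16 (limma adjusted p = 7.47e-05). The DKD libraries were close together, and the highest control was replicate 3. ZNF140 (1.64), ZNF264 (1.57) and ZNF134 (1.53 on the log2 scale) also rose without overlap between groups.

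ZNF10, whose KRAB box was used in early CRISPR interference repressors, showed the effect of the single control library. It measured 18.9, 14.7 and 15.2 TPM in DKD and 3.78, 3.61 and 15.5 TPM in the controls, so that the groups overlapped through replicate 3. Its log2 fold change was 1.35 ± 0.39 (limma adjusted p = 0.0236) with that library and 1.95 (limma adjusted p = 1.85e-05) without it. ZNF217 and ZNF644 likewise moved from 0.97 to 1.24 and from 0.71 to 1.02 when it was left out.

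In NCI-H23, 53 members were higher and 18 lower in TRA2A/B DKD. Here 43.2% of all genes passed, 20.0% higher and 23.2% lower, and of the genes at the minimum 20.0% were higher and 32.5% lower. The members passed upwards in 33.1% and downwards in 11.3% of cases, and their median log2 fold change was 0.14, against 0.02 over all genes and -0.09 at the minimum. The 238 ZNF genes tested that were not members had a median of 0.48, with 95 higher and 7 lower. A rise above 2-fold was seen in 5 members and a fall of that size in 2, where 7.08% of all genes rose as far. The split depended on the scaling: on TPM as deposited, where the median of all genes shifted by 0.17, 68 members were higher and 10 lower.

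ZNF333 led in NCI-H23 with a log2 fold change of 1.23 ± 0.16, from 5.59, 7.10 and 5.80 TPM to 17.99, 16.7 and 14.1 TPM (limma adjusted p = 0.000106). ZNF10 measured 24.2, 24.8 and 27.6 TPM in DKD and 10.6, 11.3 and 12.1 TPM in the controls, a log2 fold change of 1.01 ± 0.11 (limma adjusted p = 2.55e-05). Neither group overlapped the other for either gene. ZNF461 (1.22), ZNF362 (1.15 ± 0.36), ZNF789 (1.09) and ZNF580 (0.99) completed the 6 largest rises, and ZNF362 no longer passed in 4 of the 6 fits that left out 1 library (0.89 to 1.55). ZNF576 fell furthest, from 5.58, 6.88 and 8.81 TPM to 4.09, 2.49 and 4.02 TPM (log2 fold change -1.15 ± 0.20, limma adjusted p = 0.000974).

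**Figure D1:**
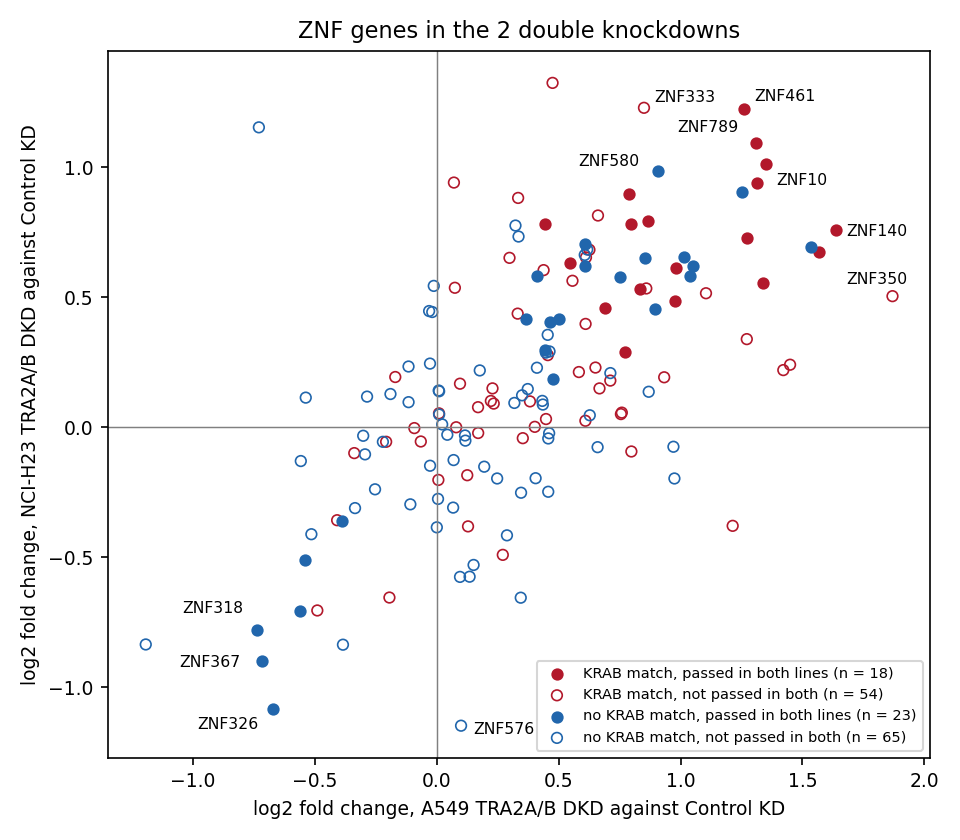
Each point is 1 of the 160 ZNF members, with its log2 fold change in TRA2A/B DKD against Control KD in A549 (horizontal) and NCI-H23 (vertical). Red points have a KRAB box and blue points do not, and filled points passed adjusted p under 0.05 in both lines, 41 in all, 35 up and 6 down.

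The A549 and NCI-H23 comparisons share no libraries, and 35 members were higher in both, which is 62.5% of the A549 and 66.0% of the NCI-H23 risers. 6 were lower in both (ZNF318, ZNF326, ZNF367, ZNF384, ZNF511 and ZNF668), and 0 passed in opposite directions, among 63 and 71 that passed. Among 8754 genes at the minimum with a unique name, those higher in both made up 60.4% of the A549 and 41.7% of the NCI-H23 risers, and 4.18% of the genes that passed in both lines went in opposite directions. The members' share of A549 risers was thus near that of other genes. Without A549 Control KD replicate 3, 41 of the 53 NCI-H23 risers were higher in A549 and 7 of the 18 that fell were lower, with 1 opposite. These were 77.4% of the risers and 38.9% of those that fell, and 2.04% of the members that passed in both were opposite. Among genes at the minimum the same shares were 50.8%, 63.5% and 4.50%. ZNF461 was the member with the largest rise common to both lines, by the smaller of its log2 fold changes. It measured 33.6, 28.9 and 32.9 TPM in A549 DKD against 9.76, 13.9 and 14.6, and 12.2, 12.5 and 18.8 TPM in NCI-H23 DKD against 5.28, 5.25 and 5.72, with log2 fold changes of 1.26 ± 0.27 and 1.22 ± 0.24. By the same measure ZNF789 (1.31 and 1.09) and ZNF10 came next. ZNF766 had 1.31 ± 0.29 and 0.94 ± 0.19, ZNF330 with 1.25 and 0.90, ZNF224, a KRAB repressor of aldolase A, with 0.79 and 0.90, and ZNF160 with 0.80 and 0.78.

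Of the members that fell in both lines, 2 are described by library. ZNF326, a subunit of the DBIRD complex that couples splicing to transcription, measured 16.1, 12.2 and 15.2 TPM in A549 DKD against 21.1, 20.1 and 25.02, and 10.03, 7.93 and 12.2 TPM in NCI-H23 DKD against 19.5, 17.8 and 19.5. Its log2 fold changes were -0.67 ± 0.14 and -1.08 ± 0.12. ZNF367 measured 5.51, 5.19 and 5.51 TPM against 6.98, 8.21 and 10.8 in A549 and 5.41, 5.47 and 6.12 TPM against 8.93, 9.48 and 10.2 in NCI-H23, with log2 fold changes of -0.72 ± 0.16 and -0.90 ± 0.10. For both genes every DKD library lay below every control in both lines. ZNF318, which acts in alternative processing of immunoglobulin transcripts, changed by -0.74 and -0.78, ZNF668, a DNA damage response protein, by -0.54 and -0.51, and ZNF511 by -0.56 and -0.71.

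**Figure D2:**
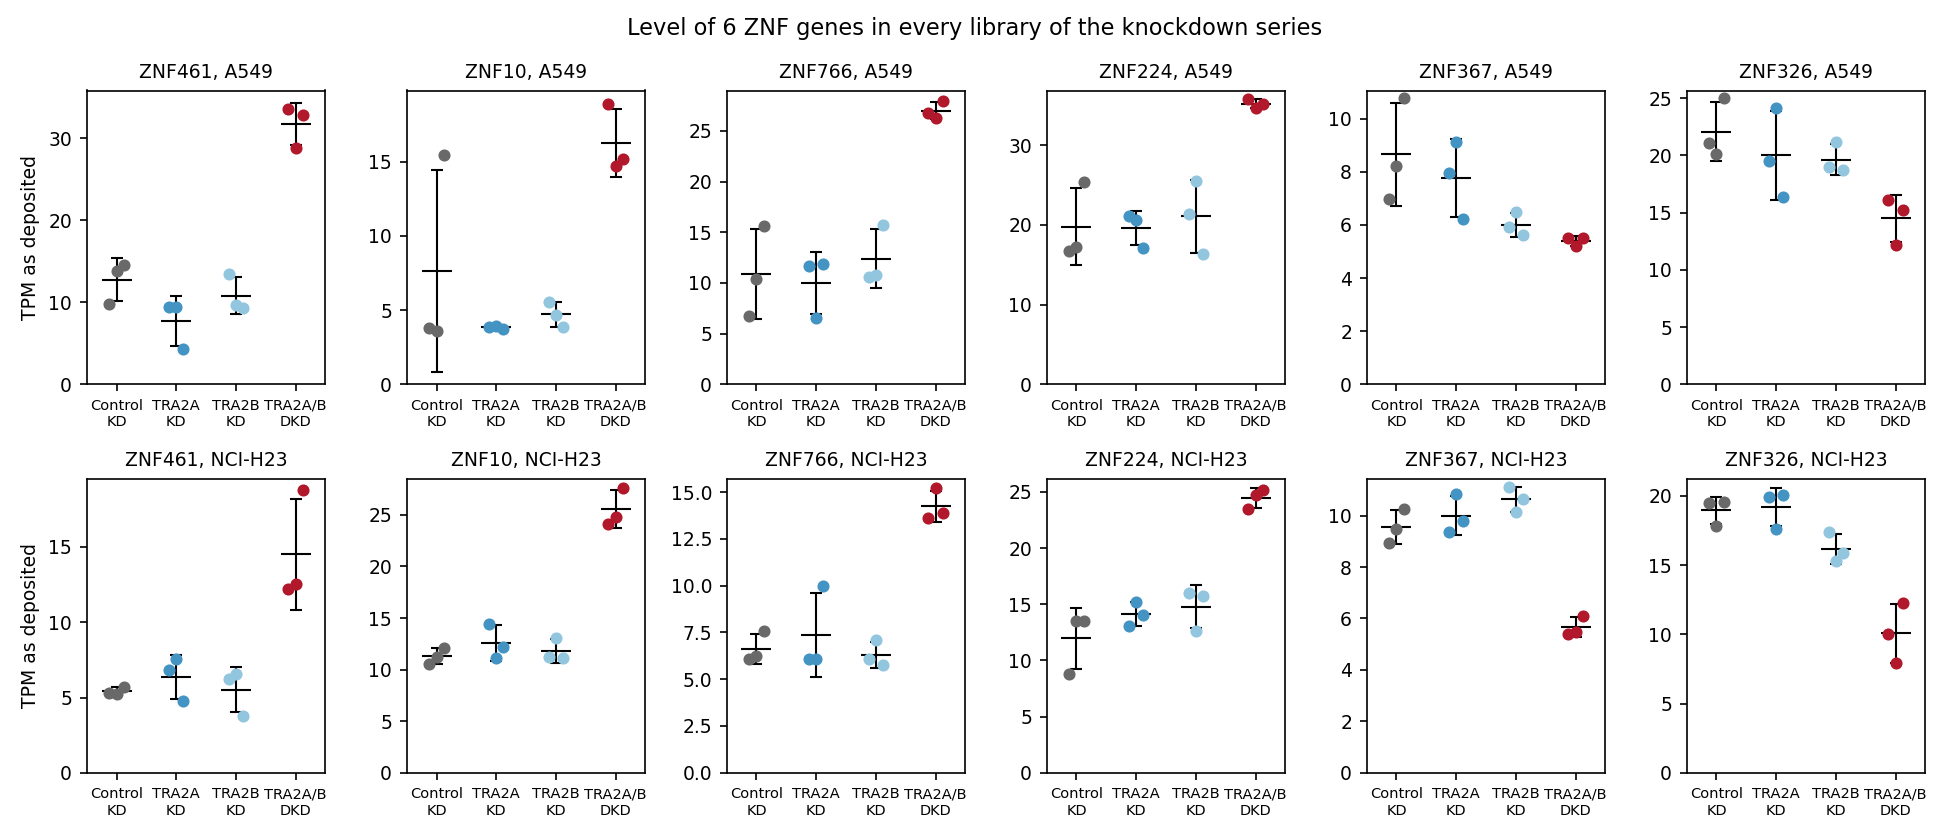
TPM as deposited of 6 ZNF genes in the 4 knockdown groups of A549 (top) and NCI-H23 (bottom); each point is 1 library, the bar is the mean and the whiskers are 1 SD (n = 3). In A549 the third control library of ZNF10 stood at 15.5 TPM, level with the DKD libraries, and in both lines ZNF461 in the single knockdowns stayed below the DKD libraries.

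In A549 the single knockdowns gave no passing member. None passed after TRA2A KD, where 0.213% of all genes did, or after TRA2B KD, where 0.335% did, by limma, and 15 and 21 of the 160 had an unadjusted p under 0.05. In NCI-H23, 1 member passed after TRA2A KD (0.976% of all genes) and 0 after TRA2B KD (0.196%) by limma, with 16 and 14 at an unadjusted p under 0.05. The 1 was ZNF768, at 29.0, 30.1 and 28.5 TPM against 36.7, 38.6 and 37.8 (log2 fold change -0.35 ± 0.06, limma adjusted p = 0.021). It passed in 1 of the 6 fits that left out 1 library, and neither with a replicate block nor with only these groups in the fit. Single and double knockdowns share their controls, and their values are given side by side. Over all 160 members the median log2 fold change was 0.38 in A549 DKD, -0.02 after TRA2A KD and 0.01 after TRA2B KD, and in NCI-H23 it was 0.14, 0.04 and -0.03.

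Whether the double knockdown differed from the sum of the single ones was tested in the same fit, on the log2 scale. In A549, 35 members passed, 33 above and 2 below the sum, where 14.7% of all genes passed, and in NCI-H23 35 passed, 26 above and 9 below, where 21.0% did. Of the members higher in DKD, 26 in A549 and 23 in NCI-H23 were among them. Both tests use the same DKD and control libraries, so that this overlap is partly built in. The overlap and the split above and below the sum are not given here for all genes. The largest excess in A549 was in ZNF10 (2.10 ± 0.55 on the log2 scale), followed by ZNF461 (2.04 ± 0.38), ZNF462 (1.67), ZNF417 (1.67), ZNF217 (1.41) and ZNF134 (1.35). An excess over the sum need not be a rise over the controls. ZNF462 had a mean of 7.03 TPM in A549 DKD against 7.36 (SD 4.05) in the controls. Its means were 3.72 TPM after TRA2A KD and 3.26 TPM after TRA2B KD. The count of 35 was 43 without A549 Control KD replicate 3, and 19 without TRA2B KD replicate 2 or DKD replicate 2. Without that control library the excess of ZNF10 was 1.51, and ZNF417 no longer passed (1.58, limma adjusted p = 0.0544). In NCI-H23 the largest excess was in ZNF333 (1.40 ± 0.22), ZNF461 (1.13 ± 0.33) and ZNF251 (1.11 ± 0.24), and ZNF576 (-1.26 ± 0.29) and ZNF367 (-1.02 ± 0.13) lay furthest below the sum.

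In LN319 Luc cells, TRA2B KO gave 51 members higher and 25 lower. Of all genes 42.7% passed, 18.5% higher and 24.2% lower, and at the minimum 15.8% were higher and 42.8% lower. The members passed upwards in 31.9% and downwards in 15.6% of cases, with a median log2 fold change of 0.13, against 0.02 over all genes and -0.15 at the minimum. The 263 ZNF genes tested that were not members had a median of 0.29, with 104 higher and 10 lower. None of the 76 members that passed reached 2-fold. On TPM as deposited, 72 were higher and 14 lower. ZNF573 (0.98 ± 0.24), ZNF587 (0.90 ± 0.08) and ZNF224 (0.87 ± 0.09) rose most. ZNF224 measured 57.7, 56.6 and 58.9 TPM against 29.6, 29.6 and 28.3, with no overlap (limma adjusted p = 3.15e-05). ZNF480 (-0.72 ± 0.17), ZNF593 (-0.59 ± 0.11) and ZNF367 (-0.57 ± 0.09) fell most, and ZNF593 measured 50.7, 54.3 and 57.2 TPM against 75.9, 74.7 and 75.2.

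13 members were higher in both double knockdowns and in LN319 TRA2B KO (ZNF24, ZNF134, ZNF160, ZNF224, ZNF226, ZNF260, ZNF264, ZNF337, ZNF343, ZNF580, ZNF721, ZNF740 and ZNF789), and 3 were lower in all of them (ZNF367, ZNF511 and ZNF668). That is 8.13% and 1.88% of the members, and of the 8754 genes at the minimum 1.80% were higher and 8.16% lower in all of them. 11 members passed in opposite directions in A549 DKD and LN319 TRA2B KO, and 8 in NCI-H23 DKD and LN319 TRA2B KO. These were 32.4% and 22.2% of the members that passed in both comparisons, against 36.0% and 34.3% of the genes at the minimum. ZNF480 and ZNF318 were among them, chosen for mention after their values were seen. ZNF480 rose in A549 DKD (log2 fold change 1.21) and fell in LN319 (-0.72), and ZNF318 fell in both double knockdowns and rose in LN319 (0.24 ± 0.06, from 14.9, 15.99 and 14.3 TPM to 18.1, 19.6 and 19.96 TPM).

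Members moved less in the remaining glioma comparisons. In LN319 Luc cells, TRA2A KO gave 13 members higher and 6 lower, a share near the 14.3% of all genes that passed. ZNF260, a partner of GATA4, rose most (0.56 ± 0.11, from 8.61, 9.12 and 9.65 TPM to 14.9, 12.03 and 12.7 TPM), and ZNF558 fell most (-0.50 ± 0.06, from 38.0, 39.7 and 35.2 TPM to 25.8, 25.2 and 26.2 TPM). The groups of these genes did not overlap. ZNF202, a SCAN and KRAB repressor of lipid metabolism genes, rose by 0.42. On TPM as deposited the split was 5 higher and 7 lower.

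In LN229 Luc cells, 2 members passed after TRA2A KO, where 3.68% of all genes did (ZNF562, 0.40, and ZNF655, 0.30 on the log2 scale), and 0 after TRA2B KO by limma, where 0.568% did and 37 members had an unadjusted p under 0.05. The count after TRA2B KO was 29, 16 higher and 13 lower, without Luc Control KO replicate 1, when 21.0% of all genes passed. ZNF580 (0.87), ZNF397 (0.72), ZNF473 (-0.67) and ZNF367 (-0.72) were among them. TRA2B overexpression alone raised 2 members in LN229, ZNF160 (0.75) and ZNF212 (0.48), where 1.03% of all genes passed, and in LN319 raised ZNF266 (0.27) and lowered ZNF217 (-0.30), where 4.30% did. With 1 library left out, 0 or 1 of the LN229 calls and, in 5 of 6 fits, 0 of the LN319 calls were kept, and with only these groups in the fit 0 members passed in either line.

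TRA2A KO in TRA2B-OE cells gave 7 members higher and 1 lower in LN229, where 6.07% of all genes passed, and 4 higher and 1 lower in LN319, where 2.81% did. ZNF473, a factor in histone pre-mRNA processing, rose in both, by 0.70 ± 0.17 in LN229 (26.5, 28.6 and 26.6 TPM against 14.5, 17.6 and 17.4) and by 0.44 ± 0.08 in LN319 (25.4, 22.5 and 21.8 TPM against 19.4, 17.6 and 16.4). ZNF778 rose most in LN319 (0.90 ± 0.17) and ZNF558 fell (-0.25). Whether TRA2B overexpression altered the response to TRA2A KO was tested as a difference of effects. By limma 0 members passed in LN229, where 0% of all genes did, and 0 in LN319, where 0.0207% did, with 8 and 18 members at an unadjusted p under 0.05. Over the 14 comparisons, 34 members never passed, 45 passed once, 47 in 2, 27 in 3, 6 in 4 and ZNF264 in 5. The same count was not taken over all genes. Of these, 30.5% passed in A549 DKD, 43.2% in NCI-H23 DKD and 42.7% in LN319 TRA2B KO.

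**Figure D3:**
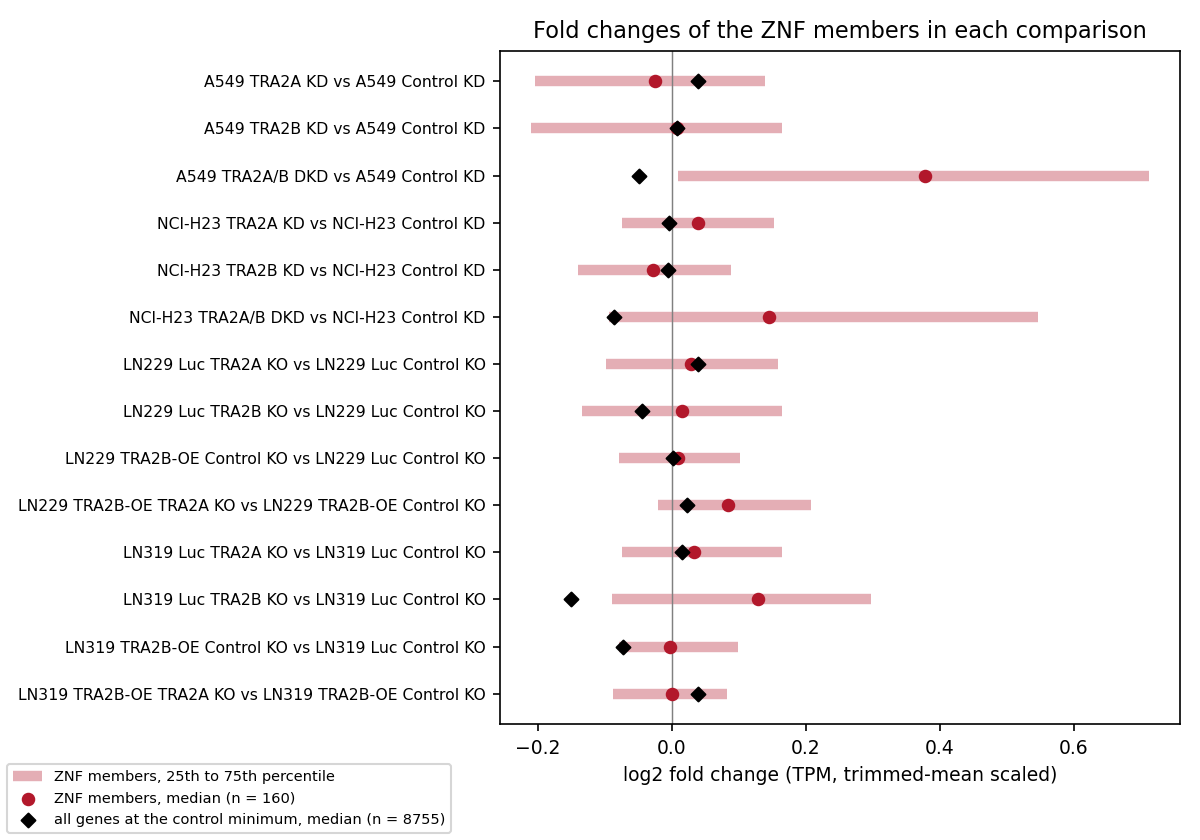
Median log2 fold change of the 160 ZNF members (red points, with bars from the 25th to the 75th percentile) and of the 8755 genes at the control minimum (black diamonds) in the 14 comparisons. The members' medians of 0.38, 0.14 and 0.13 in A549 DKD, NCI-H23 DKD and LN319 Luc TRA2B KO lie above the diamonds at -0.05, -0.09 and -0.15.

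Members were then grouped by domain, as a description with no test. In A549 DKD, 30 of 72 KRAB members were higher and 0 lower (median log2 fold change 0.60), and 26 of 88 members without KRAB were higher and 7 lower (0.22). Without A549 Control KD replicate 3, these counts were 38 and 1, and 34 and 9. In NCI-H23 DKD the KRAB members gave 29 higher and 3 lower (0.26) and the others 24 and 15 (0.09). In LN319 TRA2B KO they gave 28 and 3 (0.24), and 23 and 22 (0.01). The 17 genes with a KRAB box and another kind of name that reached the minimum gave 6, 8 and 8 higher and 0, 1 and 0 lower, with medians of 0.56, 0.29 and 0.29. The other 7799 coding genes at the minimum had medians of -0.07, -0.10 and -0.17. Related zinc finger genes share sequence, and how reads were divided among them is uncertain.

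**Figure D4:**
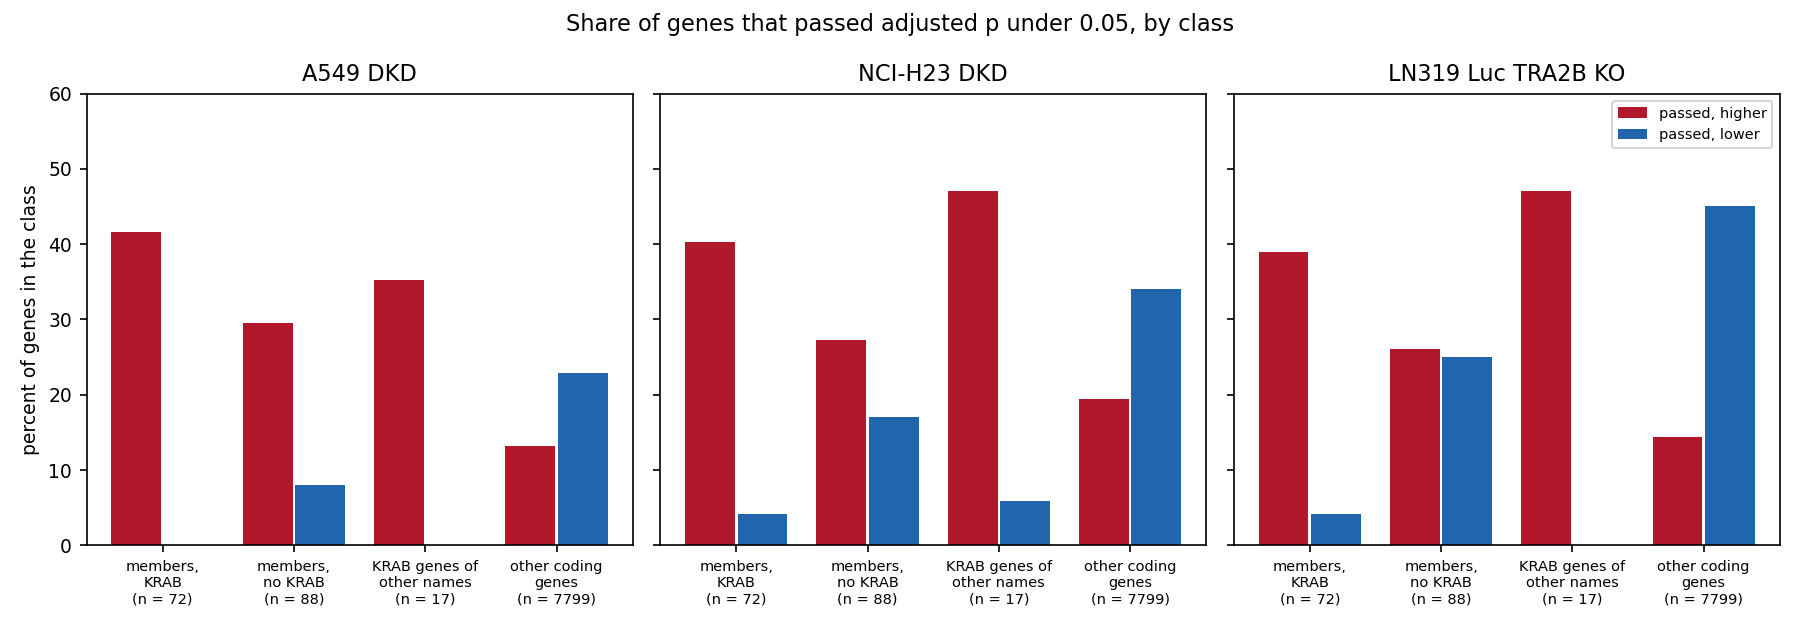
Percent of genes that passed adjusted p under 0.05 and were higher (red) or lower (blue) in 3 comparisons, for members with and without a KRAB box, KRAB genes of other names and other coding genes at the control minimum. In A549 DKD 41.7% of KRAB members were higher and 0 lower, against 13.2% and 22.8% of other coding genes.

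Members were also grouped by AGAA density in the same comparisons, in bins set after the values were seen. In A549 DKD, 11 of 56 members with up to 10 AGAA per kb were higher, 16 of 47 with over 10 to 15 and 29 of 57 with over 15, and the medians were 0.10, 0.45 and 0.58. Without A549 Control KD replicate 3 the counts were 17, 22 and 33. In NCI-H23 DKD the counts were 10, 16 and 27 with medians of 0.02, 0.19 and 0.34, and in LN319 TRA2B KO 14, 17 and 20 with medians of -0.03, 0.14 and 0.22. Other coding genes in the same bins had medians between -0.07 and -0.05 in A549 DKD, between -0.11 and -0.07 in NCI-H23 DKD and between -0.24 and -0.14 in LN319. AGAA density, GC content and the KRAB box went together in these genes: in A549 DKD 35 of 73 members under 45% GC were higher, against 21 of 87 at or above it, and 43 and 29 without A549 Control KD replicate 3. Their separate parts were not tested. Of all genes at the minimum, not split by GC content, 13.8% were higher in A549 DKD. Without A549 Control KD replicate 3, 17.5% of all genes tested were higher. Other genes of low GC content are not set beside the members here, so that a rise of low-GC genes in general is not separated.

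**Figure D5:**
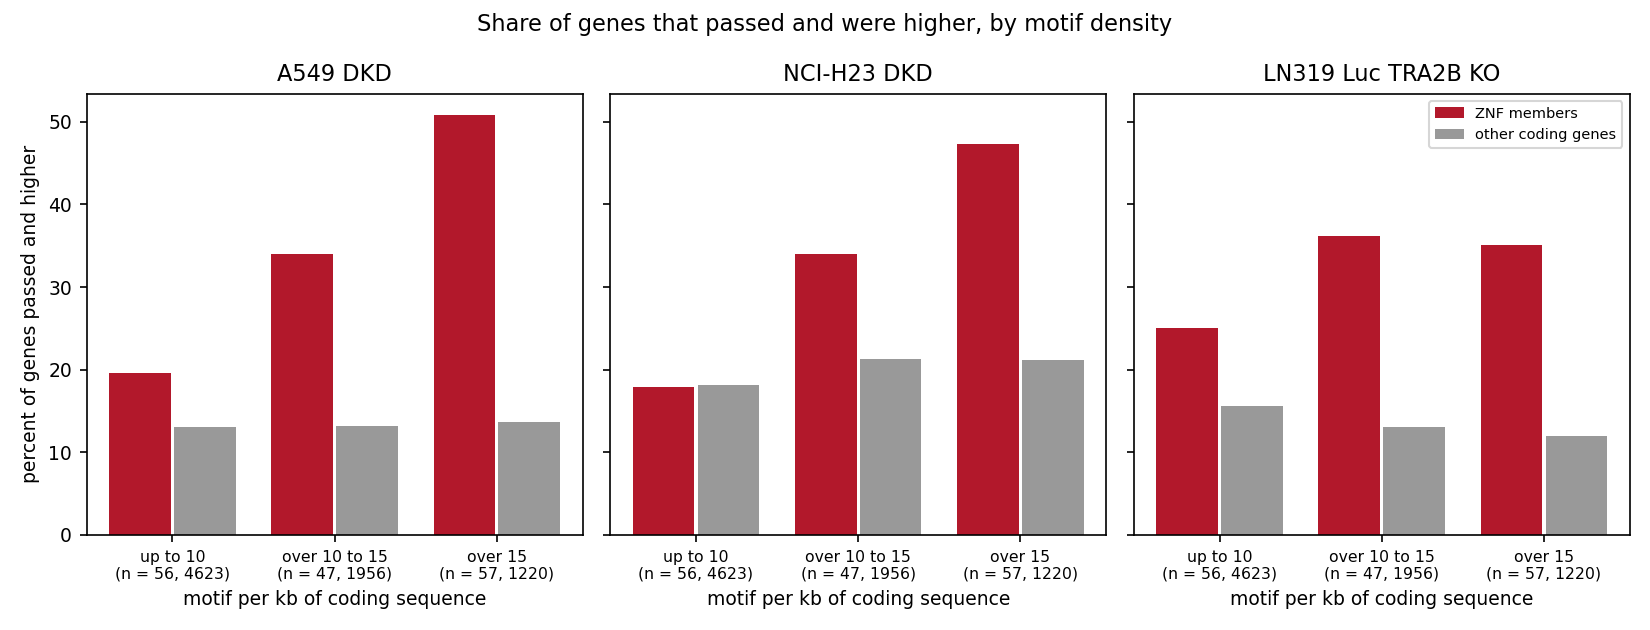
Percent of genes that passed and were higher, for ZNF members (red) and other coding genes at the control minimum (grey), by the number of AGAA motifs per kb of coding sequence. In A549 DKD the members' share was 19.6% in the lowest and 50.9% in the highest bin, and that of other coding genes ran from 13.1% to 13.6%.

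Members with a listed role were followed whatever their values. Of the genes at the minimum, 13.8% were higher and 21.6% lower in A549 DKD. These shares were 20.0% and 32.5% in NCI-H23 DKD, and 15.8% and 42.8% in LN319 TRA2B KO. Of 9 transcription factors, 6 were higher and 0 lower in A549 DKD. They were ZNF24, a SCAN repressor of VEGF (1.05 ± 0.13, 27.3, 25.3 and 24.7 TPM against 10.6, 12.6 and 12.2), ZNF217, an oncogene product that binds CoREST (0.97), ZNF131 (0.48), ZNF148 (0.46), ZNF410, an activator of CHD4 (0.44), and ZNF146 (0.35). In NCI-H23 DKD 2 were higher, ZNF24 (0.62 ± 0.07) and ZNF131 (0.19), and in LN319 TRA2B KO 3 were higher and 2 lower. ZNF143, an activator at promoters, and ZNF281 passed in none of the 14 comparisons, and their log2 fold changes in A549 DKD were 0.01 and 0.02.

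Of 8 tested partners of chromatin and corepressor complexes, ZNF592, a ZMYND8 partner, rose in both double knockdowns (0.44 and 0.30), ZNF644, a G9a partner, in A549 (0.71), and ZNF335 fell in NCI-H23 (-0.20). Of 11 members that act on RNA, the ribosome or the spindle, 3 were higher and 1 lower in A549 DKD, and 2 higher and 4 lower in NCI-H23 DKD. The NCI-H23 counts were near the shares of genes at the minimum, 20.0% higher and 32.5% lower. ZNF622, a factor in maturation of the large ribosomal subunit, rose in both (0.37 ± 0.08 and 0.42 ± 0.06) and so did ZNF330. ZNF598, the ubiquitin ligase of collided ribosomes, fell in NCI-H23 (-0.38 ± 0.08, 49.8, 54.0 and 55.2 TPM against 57.8, 68.1 and 60.7), as did ZNF207 (-0.28), ZNF593 (-0.25) and ZNF326. In A549, ZNF598 and ZNF207 had log2 fold changes of 0.00 and 0.01. All 3 named KRAB repressors, ZNF10, ZNF268 (0.71) and ZNF274, rose in A549 DKD, and 1, ZNF10, in NCI-H23 DKD. Without A549 Control KD replicate 3, the counts in A549 were 6 higher and 0 lower for the transcription factors and 3 and 0 for the chromatin partners. They were 4 and 1 for the RNA, ribosome and spindle members and 3 and 0 for the KRAB repressors. Of all genes tested, 17.5% were then higher and 20.2% lower. The median of the RNA, ribosome and spindle members went from 0.35 to 0.03.

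A list of chromatin genes was also followed, which holds TRIM28, SETDB1 and ATF7IP and also UHRF1, DNMT1 and KDM1A. Not all of its genes act only with KRAB proteins. Of 18 tested genes of this list, 1 was higher and 10 lower in A549 DKD (median log2 fold change -0.63) and 1 higher and 12 lower in NCI-H23 DKD (-0.43), and 6 higher and 5 lower in LN319 TRA2B KO (0.04). Of all genes at the minimum 21.6%, 32.5% and 42.8% were lower in these comparisons. Without A549 Control KD replicate 3 the A549 counts were 1 higher and 9 lower, with a median of -0.37 and UHRF1 at -1.61. In A549 with all controls, UHRF1, which guides maintenance DNA methylation, changed by -1.98 ± 0.30, the demethylase KDM1A by -1.23 ± 0.12, DNMT1 by -1.02 ± 0.13 and TRIM28, the direct partner of the KRAB box, by -0.63 ± 0.08, while ATF7IP, a SETDB1 partner, rose (0.79 ± 0.15) and SETDB1 did not pass (0.13 ± 0.14, limma adjusted p = 0.503).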

How the data were processed

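The authors prepared directional poly(A) libraries and, per the study's methods, quantified them with kallisto v0.48.0 against Gencode v34 on GRCh38. The deposited values are TPM per gene, 1 table per line; library sums lay between 928908 and 964610. TPM keeps no read depth, so depth is unknown and the number of libraries limits precision. TPM were rescaled per library by an unweighted trimmed mean (30% of ratios, 5% of abundances), and genes reaching 1 TPM in 4 or more libraries were kept (16405, 16293, 18490 and 19303). limma 3.58.1 in R 4.3.3 was fitted per line on log2(TPM + 0.1) with all libraries of the line, a trended prior and two-sided Benjamini-Hochberg adjustment; fold changes on this scale understate those of low genes. An exact permutation test of 3 against 3 libraries cannot give p below 0.1. Scripts were tested on simulated data. Sequences and features came from Gencode v44; KRAB and SCAN boxes were found with pyhmmer 0.12.3 profiles (E-value threshold 1e-05) built from seed patterns. Members and lists were chosen with earlier results of these data known. Named genes were the 6 largest rises and falls per comparison (all where fewer than 10 passed, up to 9), the 10 with the largest change common to both DKDs, the 5 highest and lowest controls, and the role lists. Of the genes listed by role, 31 were members; ZNF516, ZNF91 and ZNF93 were not. Same-numbered replicates were not treated as pairs: the correlation of their deviations from group means had medians between -0.013 and 0.026, and few were above 0.1. Alternatives covered scaling, pseudocount, filters, member rule, fit, block and left-out libraries.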

Additional observations from a re-analysis of the deposited data

Results flagged for a closer look

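On TPM as deposited, every library of the following members lay above the controls in 1 line and below them in the other under the same contrast, and the scaled log2 fold changes given here had opposite signs; the difference between lines was not tested. In TRA2A/B DKD, the log2 fold change of ZNF266 was 0.27 for A549 but -0.49 for NCI-H23, and that of ZNF358 was -0.54 and 0.11. In TRA2B KD, ZNF839 had -0.042 in A549 and 0.29 in NCI-H23. In TRA2B KO of Luc cells, ZNF266 had -0.21 in LN229 and 0.13 in LN319, and ZNF384 had -0.15 and 0.0016, the latter a change too near 0 to give a direction. In TRA2A KO of TRA2B-OE cells, ZNF146 had 0.24 in LN229 and -0.13 in LN319, ZNF155 had 0.24 and -0.11, and ZNF367 had 0.32 and -0.057.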

How the results depend on the processing

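Among the alternative runs of single genes, 2234 kept the outcome of the test, 417 lost the pass and 1 gained it. No named log2 fold change that passed the test changed sign under any alternative run. The balance of members did: on TPM as deposited, LN319 TRA2A KO went from 13 higher and 6 lower to 5 higher and 7 lower (68.4% to 41.7% higher), and its median from 0.03 to -0.0093. Under quantile normalization the median went from -0.02 to 0.0071 in A549 TRA2A KD and from 0.0094 to -0.012 in LN229 TRA2B-OE. With the pseudocount at 0.5 or 1 the counts of members in the 2 DKDs and LN319 TRA2B KO differed from the reported ones by at most 1.

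On TPM as deposited, the median log2 fold change of members was 0.45 in A549 DKD, 0.30 in NCI-H23 DKD and 0.24 in LN319 TRA2B KO, members lower were 10 in NCI-H23 DKD and 14 in LN319 TRA2B KO, and members called were 1 in LN229 TRA2A KO and 12 in LN319 TRA2A KO. The median over all genes then shifted to 0.11 in A549 DKD, 0.17 in NCI-H23 DKD and 0.12 in LN319 TRA2B KO, and the share higher among the members called rose from 74.6% to 87.2% in NCI-H23 DKD and from 67.1% to 83.7% in LN319 TRA2B KO. Under quantile normalization LN319 TRA2B KO had a median of 0.15 and 77.6% of its calls higher, and LN229 TRA2A KO had 1 call.

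With a filter of 5 TPM, the medians were 0.41, 0.21 and 0.22 in A549 DKD, NCI-H23 DKD and LN319 TRA2B KO, and calls were 2 in NCI-H23 TRA2A KD, 1 in LN229 TRA2B KO, 5 in LN319 TRA2B-OE and 11 in LN319 TRA2B-OE TRA2A KO. With no filter on low TPM, the non-additive calls were 21 in A549 and 22 in NCI-H23, the medians 0.10 in NCI-H23 DKD and 0.058 in LN319 TRA2B KO, and calls 1 in LN229 TRA2B-OE, 2 in LN229 TRA2B-OE TRA2A KO, 0 in LN319 TRA2B-OE and 3 in LN319 TRA2B-OE TRA2A KO. Calls in A549 DKD, NCI-H23 DKD and LN319 TRA2B KO were then 53, 56 and 64, against 63, 71 and 76 in the main fit.

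Above a log2 fold change of 1, calls were 17 in A549 DKD (17 higher, 0 lower), 7 in NCI-H23 DKD (5 higher, 2 lower), 17 and 5 for non-additivity in A549 and NCI-H23, and 0 in NCI-H23 TRA2A KD and in each glioma comparison. With members at a control mean of at least 10 TPM, 81 in number, calls were 34 in A549 DKD (30 higher, 4 lower, median 0.35), 35 in NCI-H23 DKD (24 and 11), 40 in LN319 TRA2B KO (26 and 14, median 0.055), 20 and 18 for non-additivity, 1 in LN229 TRA2A KO, 0 in LN229 TRA2B-OE, 4 in LN229 TRA2B-OE TRA2A KO, 10 in LN319 TRA2A KO, 1 in LN319 TRA2B-OE and 1 in LN319 TRA2B-OE TRA2A KO; this set holds fewer genes. With the 179 members chosen on all libraries, the medians were 0.43 in A549 DKD and 0.21 in NCI-H23 DKD.

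With a separate fit for each pair of groups, which leaves fewer libraries, calls were 39 in A549 DKD (36 higher, 3 lower), 0 in NCI-H23 TRA2A KD, LN229 TRA2A KO, LN229 TRA2B-OE, LN319 TRA2B-OE and LN319 TRA2B-OE TRA2A KO, 2 in LN229 TRA2B-OE TRA2A KO and 12 in LN319 TRA2A KO. With the replicate block, calls were 0 in NCI-H23 TRA2A KD, 9 in LN229 TRA2A KO and 9 in LN229 TRA2B KO. They were 13 in LN229 TRA2B-OE TRA2A KO and 6 in LN319 TRA2B-OE. In A549 DKD, NCI-H23 DKD and LN319 TRA2B KO they were 60, 67 and 79. The labels do not say whether libraries of the same number were paired. With a trend on transcript length and GC removed, chosen after seeing the data, calls were 1 in A549 TRA2B KD, 7 in LN229 TRA2A KO, 4 in LN229 TRA2B KO, 4 in LN229 TRA2B-OE, 14 in LN229 TRA2B-OE TRA2A KO, 8 in LN319 TRA2B-OE and 14 in LN319 TRA2B-OE TRA2A KO, and the medians 0.22 in NCI-H23 DKD and 0.15 in LN319 TRA2B KO. Calls in A549 DKD, NCI-H23 DKD and LN319 TRA2B KO were then 75, 81 and 99, against 63, 71 and 76 in the main fit. The causes of these changes were not tested.

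Leaving out 1 library at a time, calls ran from 46 to 82 in A549 DKD (41 to 72 higher, 4 to 10 lower), 57 to 69 in NCI-H23 DKD, 63 to 73 in LN319 TRA2B KO (16 to 24 lower), 19 to 43 for non-additivity in A549, 24 to 36 in NCI-H23, 0 to 1 in NCI-H23 TRA2A KD, 0 to 2 in LN229 TRA2A KO, 0 to 29 in LN229 TRA2B KO, 0 to 1 in LN229 TRA2B-OE, 2 to 6 in LN229 TRA2B-OE TRA2A KO, 10 to 17 in LN319 TRA2A KO, 0 to 6 in LN319 TRA2B-OE and 0 to 5 in LN319 TRA2B-OE TRA2A KO. The medians ran from 0.14 to 0.17 in NCI-H23 DKD and from 0.11 to 0.13 in LN319 TRA2B KO.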
